A study of Mus musculus with 8 samples.

Results

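Mouse embryonic stem cells (ESCs) kept in LIF with the GSK3 inhibitor CH were compared with ESCs kept in LIF with the MEK inhibitor PD. The comparison uses the 2 cultures labelled CH+LIF and the 2 cultures labelled LIF+PD, which are 4 of the 8 cultures of the study, and the groups come from the sample labels alone. All cultures were Rex1GFPd2 cells (RGd2), a line of strain 129 in which GFP with a short half-life reports Rex1 (Zfp42) expression. They had been derived and grown for 6 passages in 2i (CH and PD together), and were then taken through 5 further passages to passage 11 on gelatin in serum-free N2B27 medium. CH+LIF cells received the cytokine LIF and CHIR99021 (CH, 3 µM) without PD, and LIF+PD cells received LIF and PD0325901 (PD, 1 µM) without CH. The remaining cultures, 2 in 2i+LIF (both inhibitors with LIF) and 2 in 2i without LIF, entered the fit and are given as reference levels. CH and PD exchange places between the groups, so the effect of gaining 1 inhibitor and that of losing the other cannot be told apart from this contrast. All cultures came from 1 cell line, and the labels do not say whether replicates 1 and 2 were separate derivations, so the p-values measure the spread between these samples.

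Expression was measured by RNA-seq and is given as FPKM (fragments per kilobase of transcript, scaled to library size), with the 2 cultures of a condition always in the order replicate 1 and replicate 2. Of 38991 genes, 12777 were tested, namely those at 300 bases or longer with an FPKM of 1 or more in 2 cultures or more. Differences are means of log2(FPKM + 1) in CH+LIF minus LIF+PD, with the standard error (SE) of the limma fit over all 8 cultures. A gene was called when its Benjamini-Hochberg adjusted p in this fit was below 0.05. The scale understates the change of weakly expressed genes. Between 11659 and 12109 genes per culture of these 4 had an FPKM of at least 1, and mitochondrial genes held 9.36% to 10.9% of the FPKM sum. Genes under 300 bases, which were not tested, held 6.19% and 2.19% of the sum in CH+LIF and 9.83% and 5.62% in LIF+PD. Read numbers are not part of FPKM. From the ratios of weakly expressed genes, the depth relative to CH+LIF replicate 1 was estimated, from values shared by 18.7% to 22.2% of the ratios, as 1.015 in CH+LIF replicate 2, 0.859 in LIF+PD replicate 1 and 0.775 in LIF+PD replicate 2.

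Both inhibitors act on pathways that regulate ESC self-renewal. CH blocks GSK3, the kinase that marks β-catenin for destruction. Stabilised β-catenin enters the nucleus, converts TCF and LEF factors at Wnt target genes from repression to activation, and in ESCs relieves repression of naïve genes by Tcf7l1 (Tcf3). PD blocks MEK, the kinase that activates ERK downstream of autocrine FGF4, and ERK signalling induces its own feedback inhibitors and moves ESCs towards exit from the naïve state. LIF acts through its receptor and gp130 on JAK kinases and the transcription factor STAT3, and was present in both groups.

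Promoter sequence is shown for some of the target genes whose window held a match to the motif of the pathway concerned, chosen with their expression known, so that the gene lists below can be read beside the DNA that the factors are known to bind. RefSeq promoters (GRCm38.p6) were matched to 9745 of the 12777 tested genes, and the 250 bases before each start site were searched on both strands. For the TCF/LEF motif, searched as CTTTGAA or CTTTGAT, 4 of the 8 matched Wnt target genes of the list used below held it (Sp5, Sp8, T and Tnfrsf19), against 6.19% of tested and 8.63% of all genes with a promoter. The windows of Axin2 and Lef1 held no match. The windows with a match of Sp8 and Tnfrsf19, which were not called between the groups, lie before further start sites downstream of the first and are not printed. The match of Sp5 starts 104 bases before the start site, and that of T starts 235 bases before it on the reverse strand. The stretches below run 5′ to 3′ on the strand of the gene, with up to 50 bases on either side of the match and the match in capitals.
Sp5, chr2:70474769-70474875, plus strand: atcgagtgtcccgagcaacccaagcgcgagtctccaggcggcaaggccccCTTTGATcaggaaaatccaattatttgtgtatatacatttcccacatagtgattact
T, chr17:8434173-8434244, plus strand: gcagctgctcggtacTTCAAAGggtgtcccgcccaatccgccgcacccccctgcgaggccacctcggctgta
The CArG box, the motif bound by serum response factor (SRF), was found in the windows of 3 of the 11 matched contractile and SRF target genes (Myl9, Cnn2 and Vcl), against 1.32% of tested and 1.62% of all genes with a promoter. It was also found in 2 of the 8 matched Wnt targets (Lef1 and Tcf7) and in 1 of the 11 matched ERK feedback genes (Dusp5), so it was not particular to the contractile list. Srf itself carried 2 matches. Vcl is shown for its match and was not chosen by the rule for named genes. The matches start 161 bases before the start site in Myl9, 56 in Cnn2, 227 in Vcl, and 82 and 62 in Srf. The windows of Acta2, Tpm1 and Tpm2 held none.
Myl9, chr2:156775253-156775362, plus strand: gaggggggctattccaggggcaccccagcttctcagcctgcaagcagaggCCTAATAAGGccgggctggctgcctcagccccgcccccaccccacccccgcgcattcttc
Cnn2, chr10:79988494-79988579, plus strand: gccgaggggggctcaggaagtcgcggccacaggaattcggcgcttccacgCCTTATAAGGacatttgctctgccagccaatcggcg
Vcl, chr14:20929148-20929230, plus strand: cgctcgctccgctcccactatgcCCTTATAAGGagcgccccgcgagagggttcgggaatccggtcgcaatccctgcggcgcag
Srf, chr17:46556183-46556294, minus strand: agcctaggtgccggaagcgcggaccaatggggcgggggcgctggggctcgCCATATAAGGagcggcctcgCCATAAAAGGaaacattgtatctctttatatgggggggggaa
Over the called genes, the TCF/LEF motif was present in 8.08% of those higher in CH+LIF and in 5.67% of those higher in LIF+PD, and the CArG box in 1.30% and 1.85%. The AP-1 motif TGANTCA was found in 4.73% and 6.05%, compared with 4.94% of tested genes. TGACGTCA (the cAMP response element) was present in 3.20% and 3.11% of the called genes and in 3.16% of tested genes. TTCCNGGAA, a STAT motif, was present in 1.83% and 0.927%, compared with 1.21%. These shares are descriptions and were not tested. A match is not a binding site, and these windows hold no distal sequence.

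The 3 marker genes Axin2, Dusp6 and Tcf7l1 separated the conditions in every culture. Axin2 (chr11:108920349-108950783 in mm10, the build of the files), a direct β-catenin target that feeds back on the destruction complex, had an FPKM of 68.4 and 63.8 in CH+LIF and of 1.85 and 2.46 in LIF+PD. The group means differed 30.6-fold and the log2 difference was 4.42 ± 0.11 (SE, adjusted p = 1.95e-06 by limma). Dusp6 (chr10:99263231-99267488), a phosphatase of ERK that ERK signalling induces, stood at 26.5 and 32.3 in CH+LIF and at 6.86 and 4.11 in LIF+PD, a 5.36-fold higher mean and a difference of 2.26 ± 0.26 (adjusted p = 0.000675). Tcf7l1 (chr6:72626378-72789254), the TCF factor that represses naïve genes, was the 1 lower in CH+LIF, with 43.5 and 53.6 against 212 and 204 in LIF+PD and a difference of -2.08 ± 0.11, with the mean 4.28-fold higher in LIF+PD (adjusted p = 2.15e-05). The cultures of the 2 groups did not overlap for any of these genes, which held for every called gene. ESC identity genes were present in all 4 cultures. Pou5f1 (Oct4) was at 2269 and 2103 in CH+LIF and at 1722 and 1625 in LIF+PD, and Zfp42, the reporter locus, was at 258 and 238 against 253 and 259.7 (difference -0.05 ± 0.09, adjusted p = 0.71).

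The exchange of CH for PD was accompanied by a broad difference in expression. By the limma test, 4050 of 12777 genes (31.7%) were called, 1672 higher in CH+LIF (13.1%) and 2378 higher in LIF+PD (18.6%). At an unadjusted p below 0.05 there were 5498. The majority direction turned with the scaling: 1931 genes were higher in CH+LIF and 1915 in LIF+PD with equal FPKM sums (TPM), and 2188 and 2095 with quantile normalization. Of the called genes, 54 higher in CH+LIF and 204 higher in LIF+PD passed the filter on low values only with the cultures of that group. In none of the 4050 called genes did the 4 cultures overlap, which follows largely from the call and is not separate support. Over all tested genes both CH+LIF cultures lay above both LIF+PD cultures in 32.7% and below them in 36.2%. A difference of at least 1 on the log2 scale was reached by 380 called genes in CH+LIF and by 898 in LIF+PD, and one of at least 2 by 89 and 165. The median absolute difference of called genes was 0.739, and the median difference of all tested genes was -0.01. Between 2407 and 2854 genes were called when 1 of the 4 cultures was left out (fewest without CH+LIF replicate 1), and 1933 genes (696 higher in CH+LIF, 1237 in LIF+PD) were called in all 4 of these fits as well. RNA was taken from whole cultures, so a change in the number of cells of a kind and a change in RNA per cell cannot be told apart.

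**Figure D1:**
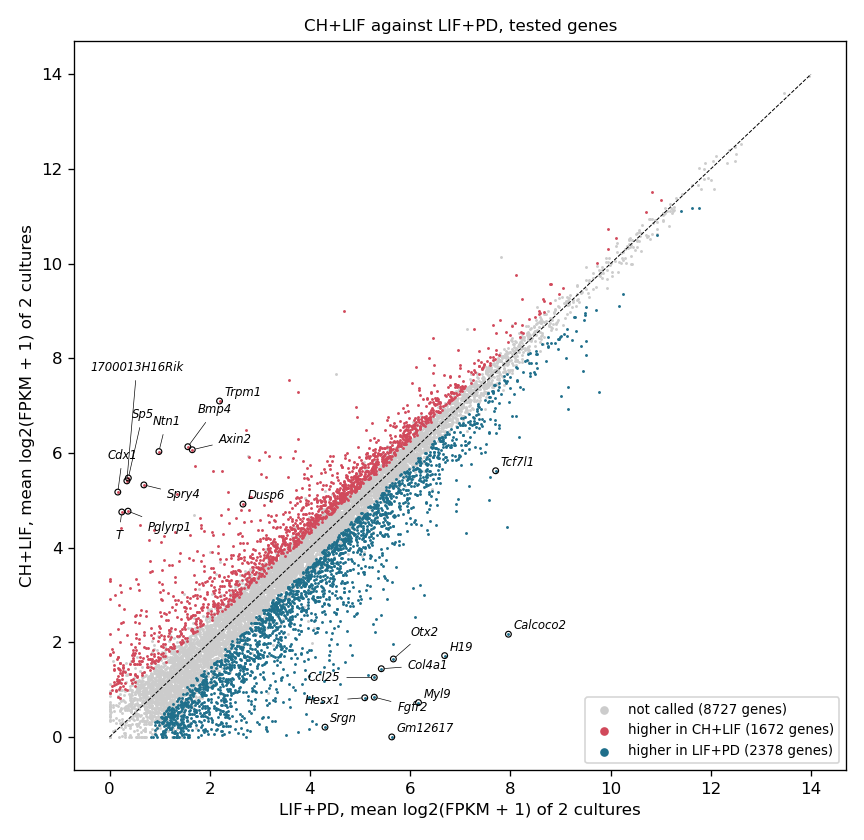
Mean log2(FPKM + 1) of the 2 CH+LIF cultures (vertical axis) against that of the 2 LIF+PD cultures (horizontal axis) for the 12777 tested genes, 1 point per gene, with the dashed line at equal values. The 1672 genes called higher in CH+LIF lie above the line and the 2378 called higher in LIF+PD below it, and the circled genes are Dusp6, Tcf7l1 and the 10 genes with the largest called difference in each direction.

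The 10 genes with the largest increase in CH+LIF, among 3207 called genes whose mean FPKM reached 5 in CH+LIF or LIF+PD, included 4 of the Wnt target list, and Sp5 was the first. Sp5 (chr2:70474923-70477729), a zinc-finger factor whose promoter stretch is shown above, was at 44.96 and 41.8 in CH+LIF and at 0.188 and 0.417 in LIF+PD (5.10 ± 0.15, adjusted p = 4.94e-06). Cdx1, a homeobox factor of posterior identity, followed the same split with 35.98 and 34.2 against 0.115 and 0.128. T (Brachyury), the T-box factor of the primitive streak, reached 36.3 and 18.5 against 0.161 and 0.2105, and replicates 1 and 2 of CH+LIF were further apart for T than for Sp5 or Cdx1. All 3 genes, with Axin2, were close to absent or low in the LIF+PD cultures.
Ntn1, which encodes the secreted guidance protein netrin-1, was at 61.5 and 67.3 in CH+LIF and at 0.979 and 0.983 in LIF+PD (5.04 ± 0.12). Trpm1, a cation channel of melanocytes and retina, was at 132 and 139.8 against 4.44 and 2.86. Bmp4, a secreted ligand of the BMP pathway, was at 65.9 and 72.5 against 2.37 and 1.59 (4.57 ± 0.17). The feedback inhibitor Spry4, which restrains receptor tyrosine kinase signalling, was at 37.5 and 40.7 against 0.547 and 0.674 (4.64 ± 0.22), the largest difference in its list. Pglyrp1, a peptidoglycan-binding protein of innate immunity, and 1700013H16Rik, an X-linked gene with no role named here, completed the 10 with differences of 4.40 and 5.06. In all 10 genes the lower CH+LIF culture was far above the higher LIF+PD culture, as the rule that chose them required no overlap.

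The 10 largest increases in LIF+PD had a different make-up. Calcoco2 (chr11:96099326-96111964), the autophagy receptor NDP52, was at 245 and 252 in LIF+PD and at 2.81 and 4.31 in CH+LIF, 69.7-fold by the means (-5.79 ± 0.19, adjusted p = 6.19e-06). Myl9 (chr2:156775420-156781658), the regulatory light chain of non-muscle and smooth-muscle myosin, was at 51.9 and 96.6 against 0.742 and 0.5701 (-5.44 ± 0.27). H19 (chr7:142575529-142578143), an imprinted long non-coding RNA, was at 94.1 and 111 against 2.37 and 2.21 (-4.97 ± 0.33). Each of these 3 genes was low in both CH+LIF cultures.
Otx2 (chr14:48657679-48667644), a homeobox factor of the epiblast on its way to formative pluripotency, was at 50.3 and 49.2 in LIF+PD and at 2.15 and 2.11 in CH+LIF (-4.02 ± 0.15). Hesx1, a homeobox repressor of the anterior embryo, was at 29.2 and 37.7 against 0.825 and 0.726. Fgfr2, a receptor for FGF ligands, was at 34.2 and 42.1 against 0.903 and 0.684 (-4.44 ± 0.23), and its entry spans 2960900 bases and overlaps 41 other entries of the files, so that its level is uncertain. Col4a1, a chain of basement membrane collagen, Srgn, a proteoglycan core protein, and Ccl25, a chemokine, differed by -3.98, -4.09 and -4.03. The tenth, Gm12617, a predicted gene 381 bases long, was listed at 0 in both CH+LIF cultures and at 41.9 and 56.5 in LIF+PD, so its fitted difference depends on the pseudocount. It passed the filter only with the LIF+PD cultures.

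The levels in 2i+LIF, where both inhibitors were present, set these genes apart from each other. Sp5 was at 69.4 and 62.3 and Axin2 at 61.3 and 59.4 in 2i+LIF, near or above CH+LIF. By contrast, Spry4 was at 2.17 and 1.07 in 2i+LIF and Dusp6 at 5.64 and 4.58, near LIF+PD. Bmp4 (13.2 and 10.7) and T (4.86 and 3.64) were between the 2 groups.
Tested in the same fit, LIF+PD minus 2i+LIF was -4.29 ± 0.11 (adjusted p = 2.13e-06) for Axin2 and 0.06 ± 0.26 (adjusted p = 0.892) for Dusp6. CH+LIF minus 2i+LIF was 0.13 ± 0.11 (adjusted p = 0.426) for Axin2 and 2.31 ± 0.26 (adjusted p = 0.00108) for Dusp6. For Bmp4 both differences were called, with -2.12 ± 0.17 (adjusted p = 0.000166) and 2.45 ± 0.17 (adjusted p = 0.000184). These comparisons share the 2i+LIF cultures with each other and the CH+LIF or LIF+PD cultures with the main contrast, and 26.7% of tested genes were called in each.
Among genes higher in LIF+PD, Otx2 was at 2.44 and 1.799 in 2i+LIF, Myl9 at 0.219 and 0.354, H19 at 2.34 and 0.794 and Col4a1 at 0.917 and 0.986, all closer to CH+LIF than to LIF+PD. Calcoco2 (79.02 and 62.8) and Srgn (4.17 and 4.24) lay between. Of the 1672 genes called higher in CH+LIF, the 2i+LIF mean was nearer to CH+LIF for 772 and nearer to LIF+PD for 900. Of the 2378 called higher in LIF+PD, it was nearer to CH+LIF for 1336 and nearer to LIF+PD for 1042. Over all tested genes the numbers were 6400 and 6377, and this placement is a description without a test.

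Wnt target and feedback genes were mostly higher in CH+LIF. Of 16 genes in the list, 12 were tested, 7 were called higher in CH+LIF and 1 in LIF+PD (66.7% called, against 31.7% of all tested genes). Their median difference was 0.58, compared with -0.01 over all tested genes. Beyond Sp5, Cdx1, T and Axin2, Lef1, a TCF-family activator, was at 31.3 and 17.9 in CH+LIF and at 4.52 and 4.97 in LIF+PD (2.11 ± 0.22, adjusted p = 0.00043). In 2i+LIF, where CH was present, Lef1 was at 6.02 and 5.455, near LIF+PD, and in 2i at 37.1 and 36.4. By limma, LIF+PD minus 2i+LIF was -0.23 ± 0.22 for Lef1 (adjusted p = 0.483). CH+LIF minus 2i+LIF was 1.88 ± 0.22 (adjusted p = 0.00126), unlike Axin2. Tcf7, which encodes Tcf1, was at 59.03 and 56.8 against 44.6 and 41.3 (0.42 ± 0.09), and Znrf3, a ubiquitin ligase that removes Wnt receptors, at 4.99 and 5.17 against 3.38 and 2.82 (0.57 ± 0.13). Tcf7 and Znrf3 had smaller differences than Lef1.
Apcdd1, a membrane-bound Wnt inhibitor, was the member called higher in LIF+PD, with 5.18 and 5.18 against 3.22 and 3.09 (-0.57 ± 0.14). The secreted Wnt deacylase Notum was at 46.3 and 42.1 in CH+LIF and 56.5 and 46.5 in LIF+PD (-0.21 ± 0.12, adjusted p = 0.205), and Tnfrsf19 at 5.52 and 3.92 against 4.22 and 3.55 (adjusted p = 0.374). Sp8 and Rnf43 had an FPKM below 1 in all 4 cultures and were not called (adjusted p = 0.114 and 0.194). Nkd1, Nkd2, Lgr5 and Dkk1 stayed below an FPKM of 1 in these 4 cultures and were not tested, with Nkd1 at 0.576 and 0.532 in CH+LIF and 0.324 and 0.359 in LIF+PD, and Lgr5 at 0.6604 and 0.275 in CH+LIF and listed at 0 in LIF+PD. Sp5, Cdx1, T, Axin2 and Lef1 stayed called in every fit without 1 of the 4 cultures, whereas Tcf7, Znrf3 and Apcdd1 lost the call in at least 1 of them (largest adjusted p = 0.053 without LIF+PD replicate 2, 0.0841 without LIF+PD replicate 2 and 0.0729 without CH+LIF replicate 2).

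Of 21 genes of the β-catenin pathway itself, all tested, 0 were called higher in CH+LIF and 7 higher in LIF+PD, with a median difference of -0.10. The share called, 33.3%, was near the 31.7% of all tested genes. After Tcf7l1, the largest called differences were those of the Groucho corepressors Tle3 (72.9 and 60.6 in CH+LIF, 165 and 124 in LIF+PD, -1.09 ± 0.18) and Tle2 (2.65 and 1.33 against 4.24 and 4.26), and of the TCF factor Tcf7l2 (15.2 and 13.8 against 26.4 and 26.7). The calls of Tcf7l1 and Tle3 held in all 4 fits without 1 of the 4 cultures, and the other 5 did not (largest adjusted p = 0.105 without CH+LIF replicate 2 for Tle2, 0.0833 without CH+LIF replicate 2 for Tcf7l2, 0.0756 without LIF+PD replicate 2 for Btrc, 0.0708 without LIF+PD replicate 2 for Tle1 and 0.096 without CH+LIF replicate 1 for Bcl9l). Btrc, Tle1 and Bcl9l are named for that reason. Tcf7l1 is also 1 of the 12 components of the naïve network described below. It was at 147 and 140.5 in 2i+LIF, above CH+LIF and below LIF+PD, and LIF+PD minus 2i+LIF was 0.53 ± 0.11 (adjusted p = 0.00957). In 2i, Tcf7l1 was at 130 and 136. CH was present in CH+LIF, 2i+LIF and 2i, and the level was lowest in CH+LIF, the 1 condition without PD. The part of either inhibitor in the level of Tcf7l1 was not tested.

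**Figure D2:**
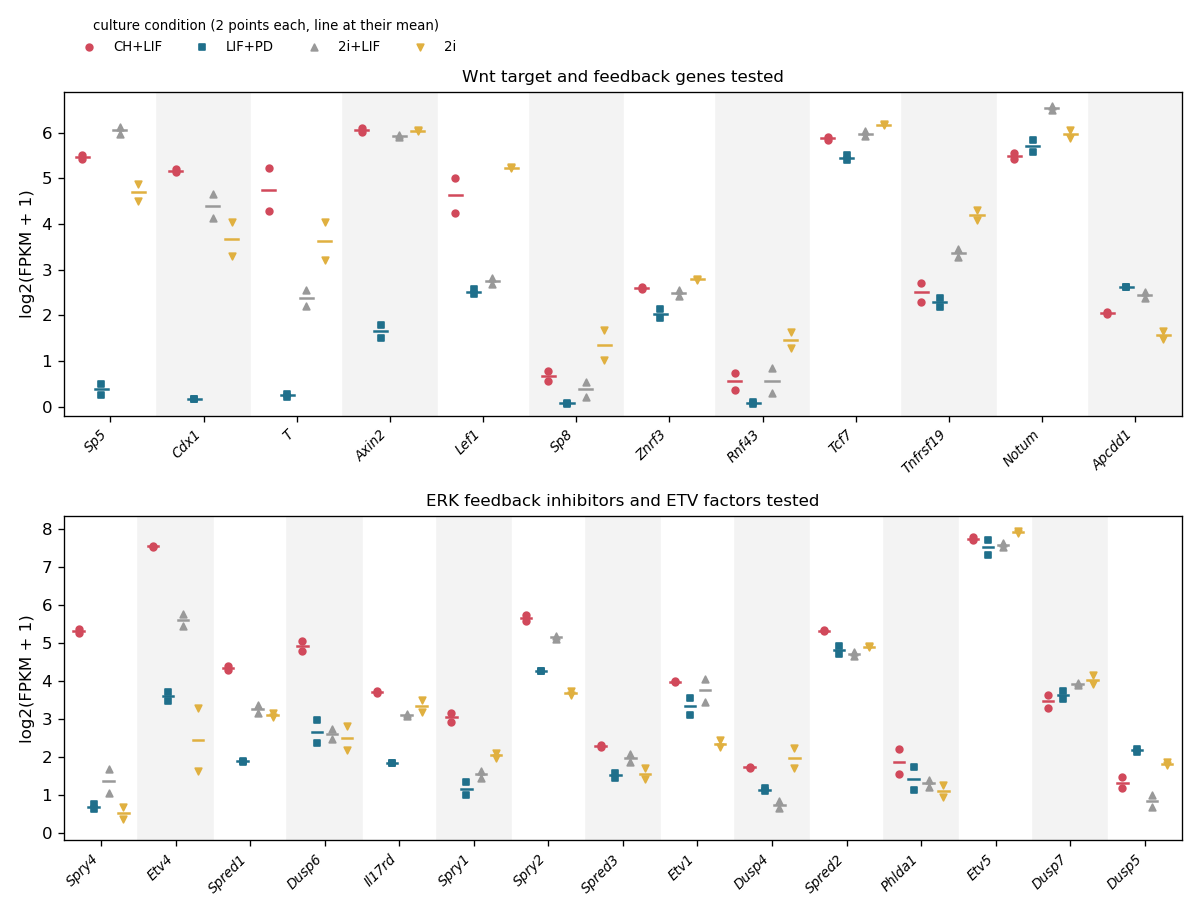
Expression of the 12 tested Wnt target genes (top) and the 15 tested ERK feedback genes (bottom) in the 8 cultures, as log2(FPKM + 1), ordered by the difference between CH+LIF and LIF+PD. Each point is a culture and each line the mean of 2 cultures. Axin2 and Sp5 are high in CH+LIF, 2i+LIF and 2i and low in LIF+PD, whereas Spry4 and Dusp6 are high in CH+LIF alone.

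ERK feedback genes were mostly higher in CH+LIF, the condition without the MEK inhibitor. All 15 members were tested, 9 were called higher in CH+LIF and 1 in LIF+PD (66.7% called, against 31.7% of all tested genes). Their median difference was 0.78. Etv4, an ETS factor downstream of FGF signalling, was at 184 and 188 in CH+LIF and at 12.1 and 10.1 in LIF+PD (3.96 ± 0.45). The Sprouty-related inhibitor Spred1 was at 20.1 and 18.6 against 2.73 and 2.66 (2.46 ± 0.12). The replicates of these genes lay close together compared with the gap between the groups.
Among the remaining inhibitors, Il17rd (Sef) was at 12.4 and 11.8 against 2.59 and 2.54, Spry1 at 6.52 and 7.95 against 1.504 and 0.997, and Spry2 at 52.3 and 46.5 against 18.3 and 18.3. Spred2 (0.50 ± 0.10) and Spred3 (0.78 ± 0.17) had smaller called differences. Etv5 was high in every culture, at 222 and 208 in CH+LIF and 210.3 and 159.8 in LIF+PD (0.23 ± 0.13, adjusted p = 0.218). Etv1 (0.66 ± 0.22, adjusted p = 0.0579), Dusp4 (0.58 ± 0.20, 0.0605), Phlda1 (0.45 ± 0.28, 0.26) and Dusp7 (-0.17 ± 0.15, 0.424) were not called.
Dusp5, a nuclear ERK phosphatase, was called in the opposite direction, at 3.65 and 3.35 in LIF+PD and 1.25 and 1.76 in CH+LIF. Its call and that of Spred3 were lost when 1 culture was left out (largest adjusted p = 0.066 without CH+LIF replicate 1 and 0.0597 without LIF+PD replicate 2), and the other 8 calls held. The level of Etv4 in 2i+LIF was 53.04 and 43.02, and LIF+PD minus 2i+LIF was -2.02 ± 0.45 (adjusted p = 0.0142), with PD present in both.

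Immediate-early genes, which growth factor signals induce within minutes, were split. Of 18 members 13 were tested, 4 called higher in CH+LIF and 4 in LIF+PD (61.5% called, against 31.7% of all tested genes). Their median difference was -0.17. Myc was at 45.9 and 45.6 in CH+LIF and at 10.2 and 4.85 in LIF+PD (2.53 ± 0.31). Ier2 (0.55 ± 0.13), Maff (0.57 ± 0.17) and Egr1 (0.56 ± 0.18) had small called increases in CH+LIF, and Egr1 was at 1.05 and 1.15 against 0.502 and 0.348. Egr1 passed the filter only with the CH+LIF cultures. In the opposite direction, the AP-1 subunit Fos was at 0.894 and 1.69 in CH+LIF and 3.97 and 4.09 in LIF+PD (-1.16 ± 0.20), Jund at 9.77 and 13.5 against 21.3 and 23.7, and Srf, whose promoter stretch with 2 CArG boxes is shown above, at 19.2 and 22.4 against 38.4 and 37.8 (-0.84 ± 0.11). Ier3 was also called higher in LIF+PD (-0.76 ± 0.13). In fits without 1 of the 4 cultures the calls of Myc, Fos, Jund, Srf and Ier3 held, whereas Ier2, Maff and Egr1 lost theirs in at least 2 (largest adjusted p = 0.076 without LIF+PD replicate 2, 0.171 without LIF+PD replicate 2 and 0.174 without LIF+PD replicate 2).

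Of 24 genes upstream of ERK 21 were tested, 0 were called higher in CH+LIF and 6 higher in LIF+PD, with a median difference of -0.12. The share called, 28.6%, was below the 31.7% of all tested genes. The ligand Fgf4, which ESCs secrete, was at 54.95 and 57.95 in CH+LIF and at 118 and 108 in LIF+PD (-0.99 ± 0.09). Of the receptors, Fgfr1 was at 26.3 and 29.2 against 63.7 and 63.4 (-1.17 ± 0.12), and Fgfr2 differed more, as given above. Fgf15 was low in CH+LIF, at 0.668 and 0.282, and differed between the LIF+PD replicates (5.83 and 2.34).
Map2k1, which encodes MEK1, a target of PD, was at 48.5 and 41.97 in CH+LIF and at 72.6 and 65.4 in LIF+PD (-0.60 ± 0.10), and was chosen after its value had been seen. The kinase Mapk3 (ERK1), also outside the rule for named genes, differed by 0.27 ± 0.12 and was not called. A call was lost in fits without 1 of the 4 cultures for 1 of the 6 genes, the adaptor Grb2, named for that reason (largest adjusted p = 0.212 without LIF+PD replicate 1).

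LIF pathway genes had few calls. Of 18 genes 17 were tested, 1 was called higher in CH+LIF and 2 in LIF+PD, which is 17.6% against 31.7% of all tested genes. The feedback inhibitor Socs3, a STAT3 target, was at 98.2 and 119 in CH+LIF and 70.3 and 75.7 in LIF+PD (0.56 ± 0.21, adjusted p = 0.0784). Stat3 was at 87.8 and 62.3 against 56.02 and 49.6 (0.48 ± 0.25, adjusted p = 0.183), and replicate 2 of CH+LIF lay nearer to LIF+PD than replicate 1 did. In 2i, where LIF was absent, Socs3 was at 2.59 and 1.29 and Stat3 at 9.69 and 17.1, below all 4 of these cultures.
The receptor chain Lifr was at 10.7 and 11.7 against 12.3 and 12.4 (-0.13 ± 0.11), and the kinase Jak1 at 12.96 and 12.8 against 14.6 and 14.3 (-0.16 ± 0.09). The shared receptor chain Il6st (gp130) was at 100.3 and 42.7 in CH+LIF and 57.9 and 92.7 in LIF+PD, so that its replicates differed by more than the group means (-0.16 ± 0.52). Bcl3 (0.60 ± 0.20), Socs2 (0.39 ± 0.20), Tyk2 (0.26 ± 0.12), Stat5a (0.05 ± 0.16), Stat5b (0.02 ± 0.17), Socs1 (-0.07 ± 0.18), Ptpn2 (-0.18 ± 0.12), Pim1 (-0.22 ± 0.20) and Jak2 (-0.30 ± 0.17) were not called either.
The calls included Pim3, a kinase gene induced by STAT3 (72.1 and 83.7 in CH+LIF, 62.2 and 59.2 in LIF+PD), and the SOCS family member Cish (4.501 and 6.24 against 8.64 and 14.97). None of the list's calls held in every fit without 1 of the 4 cultures (for Pim3 and Cish, largest adjusted p = 0.22 without CH+LIF replicate 2 and 0.202 without LIF+PD replicate 2). Osmr was not tested, with values of 0.0866 and 0.173 in CH+LIF and 0.206 and 0.0186 in LIF+PD.

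The 12 components of the naïve network, which include Tcf7l1 and Stat3, were divided between the conditions. Of these, 5 were called higher in CH+LIF and 4 in LIF+PD (75% called, against 31.7% of all tested genes), and the median difference was 0.19. Gbx2, a homeobox factor, had the largest increase in CH+LIF, at 21.9 and 25.8 against 2.27 and 2.73 in LIF+PD (2.83 ± 0.15, adjusted p = 2.21e-05). Tfcp2l1, a target of both LIF and CH, was at 108 and 119 against 57.01 and 48.9 (1.08 ± 0.11), and Klf4, a target of STAT3, at 175 and 219 against 117 and 103 (0.82 ± 0.12). These 3 calls held in all fits without 1 of the 4 cultures.
Esrrb, an orphan nuclear receptor that Tcf7l1 represses, was at 229 and 235 in CH+LIF and 189.7 and 164 in LIF+PD (0.39 ± 0.11, adjusted p = 0.028), and Pou5f1 differed by 0.38 ± 0.11 (adjusted p = 0.0287). Both lost the call in at least 3 of the 4 fits without 1 of these cultures (largest adjusted p = 0.157 without LIF+PD replicate 2 and 0.154 without LIF+PD replicate 2). In the opposite direction Nanog was at 305 and 283 in CH+LIF and at 500.2 and 493 in LIF+PD (-0.75 ± 0.11, adjusted p = 0.00198), and Sox2 at 174 and 157 against 264 and 242 (-0.61 ± 0.11). Nanog and Sox2 were therefore lower where Tfcp2l1, Klf4 and Gbx2 were higher.
Sall4, a zinc-finger factor, was at 287 and 262 in CH+LIF and 331 and 337 in LIF+PD (-0.28 ± 0.09, adjusted p = 0.0406) and did not hold in any of those 4 fits (largest adjusted p = 0.182 without CH+LIF replicate 2). Klf2 was at 205 and 263 against 232 and 234 (-0.003 ± 0.12), and Tbx3 at 59.1 and 59.5 against 76.6 and 54.1 (-0.12 ± 0.16). Klf2 and Tbx3 were not called (adjusted p = 0.985 and 0.604).

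**Figure D3:**
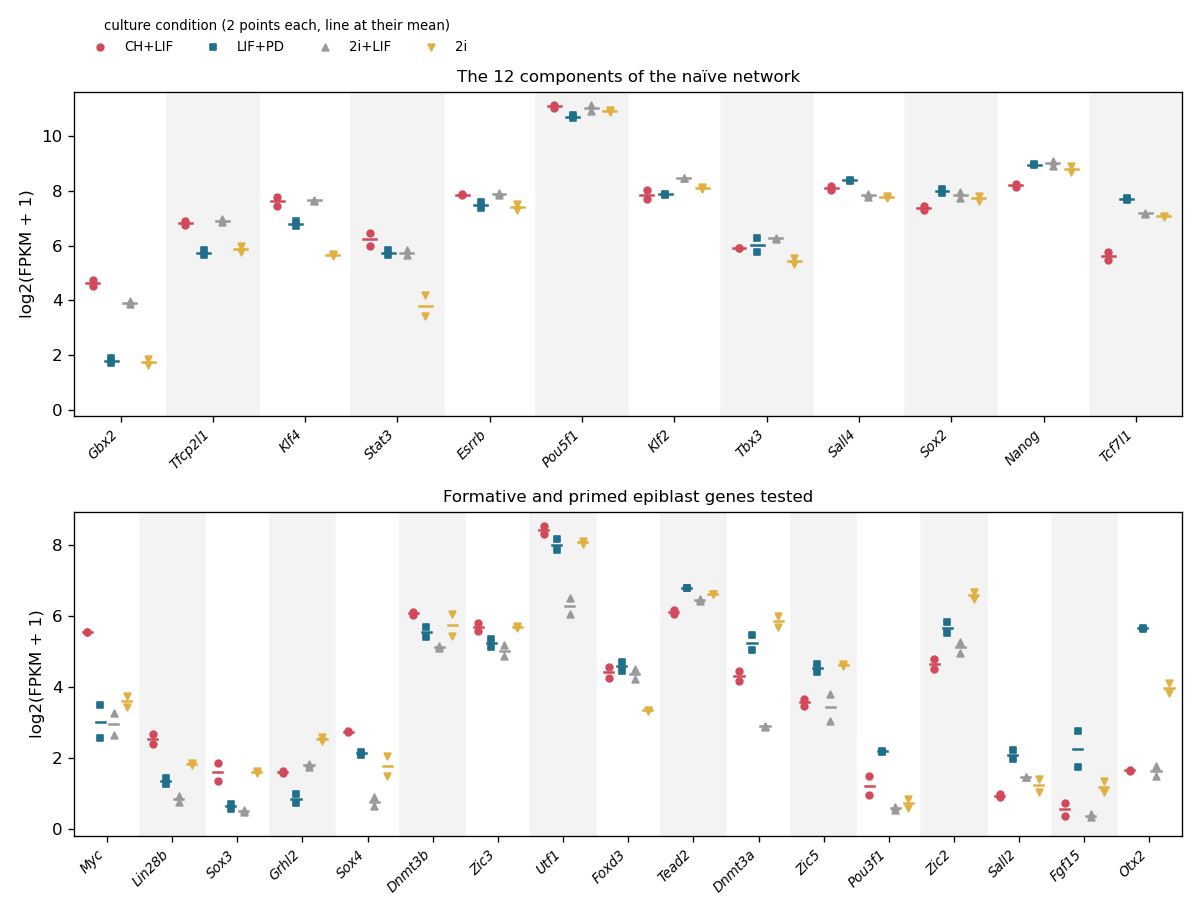
Expression of the 12 network components (top) and the 17 tested formative and primed epiblast genes (bottom) in the 8 cultures, as log2(FPKM + 1), with 1 point per culture and lines at the mean of 2. Gbx2 and Tfcp2l1 are higher in CH+LIF than in LIF+PD, Nanog, Sox2 and Tcf7l1 are lower, and Otx2 is high in LIF+PD with intermediate values in 2i.

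Naïve markers outside the network were also split, with 5 of 16 tested members called in each direction (62.5% called, against 31.7% of all tested genes). Their median difference was 0.06. Manba, a lysosomal mannosidase, was at 41.4 and 29.9 in CH+LIF and 3.39 and 5.11 in LIF+PD (2.81 ± 0.21), and Tdh, the threonine dehydrogenase on which mouse ESCs depend, at 609 and 612 against 328 and 272 (1.03 ± 0.11). Klf5 (0.61 ± 0.12) and Nr0b1 (0.57 ± 0.12) were called higher in CH+LIF as well. Dppa3 (Stella), a maternal factor of the naïve and germline state, was at 2.37 and 2.302 in CH+LIF and 25.7 and 29.9 in LIF+PD (-3.10 ± 0.22), the largest difference of the list in that direction.
Fbxo15, an early ESC marker, was at 120.4 and 99.3 against 272 and 282 (-1.33 ± 0.13), and Prdm14, which restrains FGF signalling and DNA methylation in ESCs, at 11.4 and 9.62 against 23.5 and 18.3 (-0.92 ± 0.20). Tcl1, a coactivator of AKT, differed by -0.58 ± 0.18. Of the genes named here, Nr0b1, Prdm14 and Tcl1 lost their calls in at least 1 fit without 1 of the 4 cultures (largest adjusted p = 0.0547 without LIF+PD replicate 2, 0.0769 without LIF+PD replicate 1 and 0.212 without LIF+PD replicate 1). The sign of this list's median changed without CH+LIF replicate 1 and without LIF+PD replicate 2 (-0.03, the lowest median).

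Formative and primed epiblast genes were called in both directions, 5 of 17 tested higher in CH+LIF and 8 higher in LIF+PD (76.5% called, against 31.7% of all tested genes). Besides Otx2, LIF+PD was higher for Zic2, a zinc-finger factor of the later epiblast, at 56.03 and 45.1 against 26.5 and 21.9 in CH+LIF (-1.03 ± 0.16). Sall2 (-1.15 ± 0.18) and Fgf15 (-1.71 ± 0.33) were higher in LIF+PD at lower levels. CH+LIF was higher for Lin28b, an inhibitor of let-7 processing, at 5.43 and 4.25 against 1.4 and 1.69 (1.19 ± 0.17), for Sox3 at 1.57 and 2.64 against 0.624 and 0.479, and for Grhl2 at 1.97 and 2.07 against 0.958 and 0.664. Sox3 and Grhl2 lost the call in at least 1 fit without 1 of the 4 cultures (largest adjusted p = 0.052 without CH+LIF replicate 2 and 0.0528 without LIF+PD replicate 2). The POU factor Pou3f1, named for that reason, passed the filter only with the LIF+PD cultures and is 1 of the 8. Fgf5, a primed marker, was not tested and was at 0.0666 and 0.0985 in CH+LIF and 0.426 and 0.473 in LIF+PD.
Among 9 DNA methylation genes, Dnmt3a, a de novo methyltransferase, was the 1 called, at 21.04 and 17.0 in CH+LIF and 43.4 and 31.9 in LIF+PD (-0.94 ± 0.17). It was at 6.498 and 6.33 in 2i+LIF, below both groups. The share called, 11.1%, was below the 31.7% of all tested genes.

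Mesendoderm factors were mostly low, with T and Eomes as the members above an FPKM of 5 in CH+LIF and Gsc in LIF+PD. Of 16 genes in this list 6 were tested, 4 were called higher in CH+LIF and 1 in LIF+PD (83.3% called, against 31.7% of all tested genes). T belongs to this list as well as to the Wnt targets. Eomes, a T-box factor of the streak and of trophectoderm, was at 9.98 and 8.85 in CH+LIF and 1.22 and 1.76 in LIF+PD (2.07 ± 0.25). Cdx2 (1.897 and 0.733 against 0.0433 and 0.09599) and Evx1 (1.62 and 1.07 against 0.266 and 0.111) were higher at low levels, and their calls were lost in fits without 1 of the 4 cultures (largest adjusted p = 0.0676 without LIF+PD replicate 1 and 0.0745 without CH+LIF replicate 1). Evx1 passed the filter only with the CH+LIF cultures. Gsc (Goosecoid), an organiser gene, was higher in LIF+PD, at 6.77 and 6.1 against 0.654 and 0.499 (-2.24 ± 0.32). Cer1 and Msgn1 were listed at 0 in all 4 cultures, and the other untested members were below an FPKM of 1 in each of them. The summed FPKM of the list was 51.5 and 30.6 in CH+LIF and 10.02 and 11.5 in LIF+PD.

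BMP pathway and Id genes were called in both directions. Of 16 genes 14 were tested, with 3 called in each direction. Alongside Bmp4, the Id genes, inhibitors of basic helix-loop-helix factors that BMP signalling induces, were split between the conditions. Id3 was at 44.5 and 51.4 in CH+LIF and 3.91 and 2.57 in LIF+PD (3.54 ± 0.33), and Id1 at 15.7 and 29.2 against 1.97 and 3.28 (2.65 ± 0.30). Id2 was at 2.38 and 2.47 against 12.8 and 13.7 (-2.05 ± 0.21), and Id4 at 3.74 and 3.57 against 12.9 and 8.09 (-1.27 ± 0.21). The inhibitory Smad6 was higher in LIF+PD, at 8.42 and 8.37 against 1.96 and 2.67 (-1.51 ± 0.15). All 6 calls held in the 4 fits without 1 of these cultures.
In the Nodal pathway 1 of 17 tested genes was called higher in CH+LIF and 4 higher in LIF+PD, a share of 29.4% that was near the 31.7% of all tested genes. The ligand Nodal was at 14.7 and 18.02 in CH+LIF and 52.3 and 48.9 in LIF+PD (-1.58 ± 0.12, adjusted p = 0.000114), and its effector Smad3 at 15.96 and 16.7 against 43.6 and 30.99 (-1.12 ± 0.15). The ligand Gdf3 (-0.45 ± 0.11) and the receptor Acvr1b (0.46 ± 0.12, higher in CH+LIF) lost the call in at least 2 of the 4 fits (largest adjusted p = 0.0983 without CH+LIF replicate 2 and 0.127 without LIF+PD replicate 1).

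Contractile actomyosin and SRF target genes were higher in LIF+PD almost throughout. Of 18 listed genes 13 were tested and all 13 were called, against 31.7% of all tested genes. Of these, 12 were higher in LIF+PD and 1, Tagln2, higher in CH+LIF, with a median difference of -1.57. After Myl9, the tropomyosin Tpm2 was at 34.8 and 50.4 in LIF+PD and 4.85 and 5.03 in CH+LIF (-2.85 ± 0.17, adjusted p = 4.40e-05). The smooth-muscle actin Acta2 was at 3.22 and 8.46 in LIF+PD against a replicate listed at 0 and one at 0.0956 in CH+LIF (-2.59 ± 0.34), and the calponin Cnn2 at 159 and 226 against 24.4 and 39.8 (-2.57 ± 0.26). Acta2 passed the filter only with the LIF+PD cultures, whereas the other 12 called genes passed also without the group in which they were higher. For Myl9, Tpm2, Acta2 and Cnn2, replicate 2 of LIF+PD was above replicate 1, and both were above CH+LIF.
Vcl, which encodes vinculin, differed less, at 23.7 and 25.6 against 16.1 and 15.2 (-0.63 ± 0.11). Tagln2, a transgelin, was at 114 and 150.3 in CH+LIF and 85.8 and 90.7 in LIF+PD (0.56 ± 0.14), a call lost in fits without 1 of the 4 cultures (largest adjusted p = 0.096 without LIF+PD replicate 1). Of the 12 genes higher in LIF+PD, 11 held in all 4 of those fits. The exception was filamin (Flna, named for that reason, largest adjusted p = 0.0738 without CH+LIF replicate 1). Cnn1 and Fhl2 were below an FPKM of 1 and Actg2 and Ankrd1 were listed at 0 in all 4 cultures. The mean in 2i+LIF was closer to CH+LIF than to LIF+PD for 11 of the 13 tested genes, Tagln2 and Actn1 being the exceptions, with Tpm2 at 2.36 and 2.74, Cnn2 at 28.1 and 22.95 and Acta2 listed at 0, while in 2i Tpm2 was at 17.3 and 15.4 and Cnn2 at 39.9 and 51.99.

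Extracellular matrix and adhesion genes followed the same direction. Of 20 members, all tested, 13 were called higher in LIF+PD and 1 in CH+LIF (70% called, against 31.7% of all tested genes). Their median difference was -0.63. The paired basement membrane collagens Col4a1 (41.1 and 42.9 in LIF+PD, 1.68 and 1.75 in CH+LIF) and Col4a2 (16.1 and 19.9 against 0.598 and 0.733, -3.50 ± 0.17) had the largest differences. Their entries overlap in position, and the use of strand in counting is not stated. Col4a2 passed the filter only with the LIF+PD cultures. Col18a1, another basement membrane collagen, was at 95.03 and 85.3 against 31.3 and 31.7 (-1.49 ± 0.10), and the matrix glycoprotein Sparc at 249 and 277 against 97.9 and 122 (-1.26 ± 0.13). Epcam, an epithelial adhesion molecule, was higher in CH+LIF, at 27.6 and 28.1 against 12.9 and 14.4 (0.98 ± 0.13). In fits without 1 of the 4 cultures, 11 of the 13 genes higher in LIF+PD and Epcam stayed called. The exceptions were the integrins Itga3 and Itga6, named for that reason (largest adjusted p = 0.111 without CH+LIF replicate 1 and 0.071 without CH+LIF replicate 1). Neither E-cadherin (Cdh1, 115 and 115 in CH+LIF against 104 and 104 in LIF+PD) nor fibronectin (Fn1, 119 and 136 against 136 and 123) was called (adjusted p = 0.255 and 0.901), and both were chosen after their values had been seen.

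**Figure D4:**
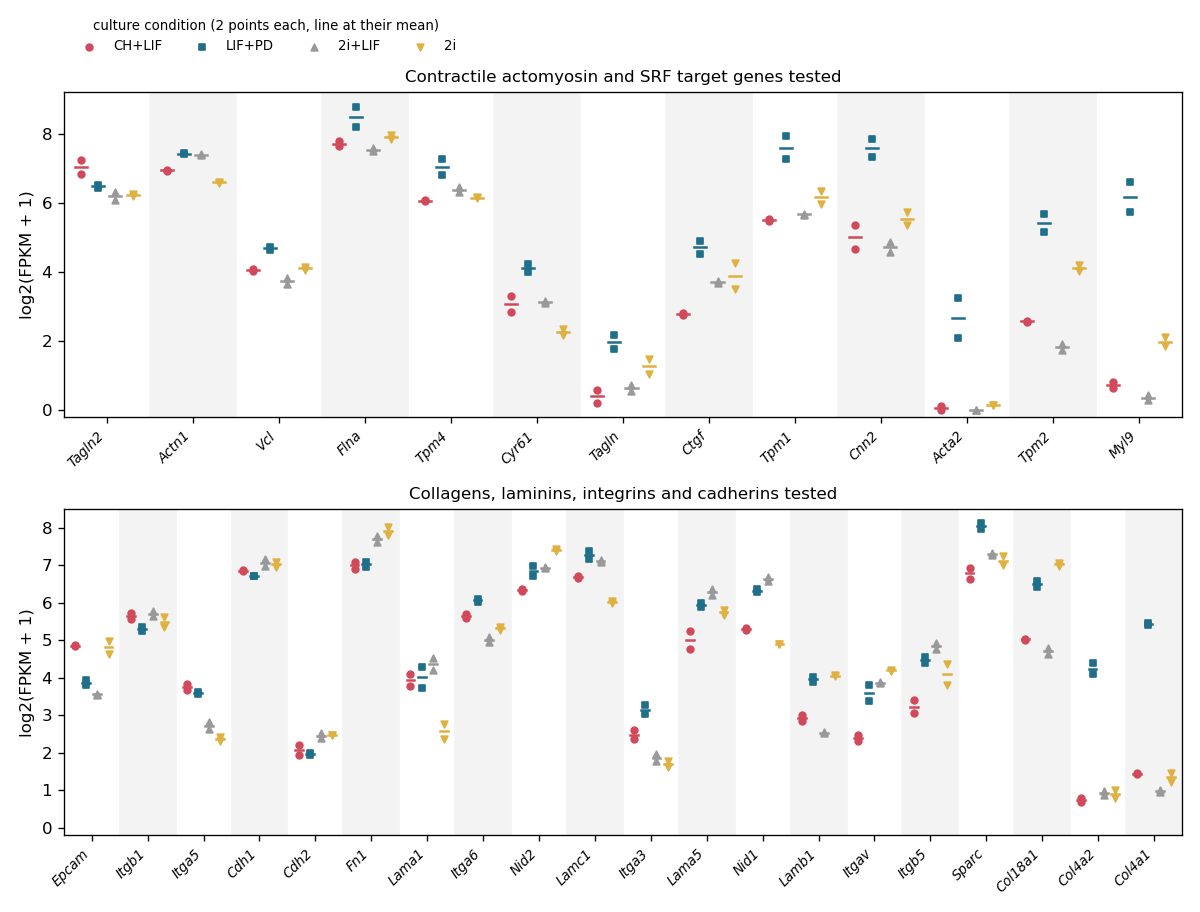
Expression of the 13 tested contractile actomyosin and SRF target genes (top) and the 20 tested matrix and adhesion genes (bottom) in the 8 cultures, as log2(FPKM + 1), with 1 point per culture and lines at the mean of 2. LIF+PD lies above CH+LIF for 12 of the 13 genes in the top panel, and for Col4a1, Col4a2 and Acta2 it lies above every other condition.

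Cell cycle genes of the G1 phase were called in both directions, 4 of 18 tested higher in CH+LIF and 7 higher in LIF+PD (61.1% called, against 31.7% of all tested genes). Cdk6, a partner of the D-type cyclins, was at 12.1 and 12.2 in CH+LIF and 0.824 and 0.693 in LIF+PD (2.90 ± 0.14, adjusted p = 1.92e-05). The CDK inhibitor Cdkn1a (p21) was higher in CH+LIF, at 56.8 and 62.3 against 33.9 and 33.6 (0.80 ± 0.09). Ccne2 (1.06 ± 0.31) and Cdk4 (0.29 ± 0.08) were also called higher in CH+LIF, with calls that did not hold in any of the 4 fits without 1 of the cultures (largest adjusted p = 0.183 without CH+LIF replicate 1 and 0.142 without LIF+PD replicate 1).
The inhibitors Cdkn2b (p15), Cdkn1c (p57) and Cdkn1b (p27) were higher in LIF+PD. Cdkn2b was at 4.51 and 4.25 against 0.839 and 0.9501 (-1.51 ± 0.16), Cdkn1c at 14.6 and 11.8 against 4.96 and 5.61 (-1.17 ± 0.15), and Cdkn1b at 30.6 and 34.5 against 13.9 and 16.8 (-1.04 ± 0.11). Rb1, the retinoblastoma protein gene, was at 23.3 and 15.5 in LIF+PD and 2.56 and 5.07 in CH+LIF (-2.11 ± 0.34). Within the MYC network, 1 of 10 tested genes was called higher in CH+LIF (Myc) and 3 in LIF+PD (40% called, against 31.7% of all tested genes). Mycn moved against Myc, at 128 and 120.1 in LIF+PD and 58.2 and 60.97 in CH+LIF (-1.05 ± 0.08). The 4 cultures did not overlap for any of these genes, which held for every called gene and adds nothing to the calls. The antagonists Mxd4 (-1.16 ± 0.19) and Mxi1 (-0.41 ± 0.12) were also higher in LIF+PD, the latter with a call that did not hold without 1 of the 4 cultures (largest adjusted p = 0.152 without CH+LIF replicate 2).

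In glucose metabolism, 2 of 21 tested genes were called higher in CH+LIF and 5 in LIF+PD. The share called, 33.3%, was near the 31.7% of all tested genes, and all 7 calls held in each fit without 1 of the 4 cultures. Pdk1, the kinase that shuts off pyruvate dehydrogenase, was at 171 and 141 in CH+LIF and 15.1 and 10.4 in LIF+PD (3.53 ± 0.26), and Aldoc, an aldolase, at 48.8 and 32.8 against 19.3 and 14.5. The lactate transporter Slc16a3 was higher in LIF+PD, at 58.5 and 35.5 against 8.71 and 4.802 (-2.63 ± 0.42), as were Ldhb, a lactate dehydrogenase subunit (642 and 729 against 323 and 287, -1.17 ± 0.10), the enolase Eno3 (-0.88 ± 0.14) and the glucose transporter Slc2a1 (-0.66 ± 0.11). Pdk1 was at 30.2 and 17.2 in 2i+LIF and at 113 and 99.7 in 2i.
Cholesterol and fatty acid synthesis genes leaned to CH+LIF, with 8 of 21 tested called higher there and 1 in LIF+PD (42.9% called, against 31.7% of all tested genes). Their median difference was 0.20. Acaca, acetyl-CoA carboxylase, was at 18.3 and 15.9 against 8.48 and 8.05 (0.97 ± 0.12), and Cyp51, a sterol demethylase, at 62.6 and 58.5 against 38.2 and 40.8 (0.61 ± 0.09). Both calls held in every fit without 1 of the 4 cultures. Scd2 (0.98 ± 0.26) and, in the other direction, Fdft1 (-0.31 ± 0.09) lost theirs (largest adjusted p = 0.143 without CH+LIF replicate 1 and 0.19 without LIF+PD replicate 2).

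Imprinted genes were called for 11 of 15 tested members (73.3%, against 31.7% of all tested genes), 5 higher in CH+LIF and 6 in LIF+PD. Phlda2, a growth regulator expressed from the maternal allele, was at 58.5 and 62.04 in CH+LIF and 7.997 and 8.14 in LIF+PD (2.75 ± 0.12), and Plagl1 (Zac1) at 23.3 and 27.5 against 9.56 and 10.4 (1.26 ± 0.12). Meg3 (1.08 ± 0.22) and Mest (0.87 ± 0.17) were also higher in CH+LIF, and both calls were lost without LIF+PD replicate 1 (largest adjusted p = 0.0568 without LIF+PD replicate 1 and 0.0504 without LIF+PD replicate 1). Beside H19, its neighbour Igf2, a fetal growth factor, was at 4.28 and 4.29 in LIF+PD and 0.997 and 0.503 in CH+LIF (-1.61 ± 0.27), and Peg3 at 23.4 and 26.3 against 7.62 and 8.19 (-1.54 ± 0.19). H19, Igf2 and Cdkn1c lie on chromosome 7 with Phlda2, which differed in the opposite direction. Igf2 passed the filter only with the LIF+PD cultures. The FPKM values do not separate the parental alleles.

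Markers of other cell types differed by list. For primitive endoderm, 3 of 11 listed genes were tested and 2 called higher in LIF+PD, Fgfr2 and Gata4 (1.93 and 1.83 against 0.986 and 0.756). That was 66.7% called, against 31.7% of all tested genes. Summed FPKM was 3.08 and 3.82 in CH+LIF and 38.5 and 47.9 in LIF+PD, where most of it was Fgfr2. The defining factors Gata6 and Sox17 were at most at 0.227 in the 4 cultures, and the call of Gata4 did not hold without 1 of them (largest adjusted p = 0.167 without CH+LIF replicate 2). Trophectoderm factors and simple-epithelium keratins had 3 of 11 tested genes called higher in CH+LIF and 4 in LIF+PD, with summed FPKM of 79.7 and 97.4 against 137 and 157. The share called, 63.6%, was above the 31.7% of all tested genes. Those higher in CH+LIF were Eomes (2.07 ± 0.25), Cdx2 (1.07 ± 0.25) and Tfap2a. The levels of Eomes and Cdx2, and the limit on the call of Cdx2, are given with the mesendoderm factors. Gata3, a GATA factor of trophectoderm, was at 14.4 and 18.4 in LIF+PD and 0.0254 and 0.426 in CH+LIF (-3.84 ± 0.52), Tfap2c at 45.4 and 52.8 against 15.6 and 16.8 (-1.54 ± 0.15), and Tfap2a at 1.87 and 2.3 against 4.77 and 5.02 (0.94 ± 0.12). The tight junction gene Cldn4 was at 48.8 and 50.8 against 27.7 and 39.2 (-0.58 ± 0.17) and Gata2 at 1.91 and 1.85 against 0.548 and 0.596 (-0.87 ± 0.20), with calls that were lost in fits without 1 of the 4 cultures (largest adjusted p = 0.161 without CH+LIF replicate 1 and 0.0717 without CH+LIF replicate 1). Elf5 and Hand1 were below 1 in all 4 cultures.
Of 11 neural progenitor markers 3 were tested, and Pax6 (11.3 and 10.7 in LIF+PD, 0.805 and 0.6604 in CH+LIF, -2.79 ± 0.15) and Nes (7.67 and 7.14 against 1.42 and 1.41, -1.80 ± 0.14) were called higher in LIF+PD. That was 66.7% called, against 31.7% of all tested genes. Sox1, an early neural marker, was at 0.748 and 1.34 against 1.04 and 1.83 (adjusted p = 0.449), and Olig2, Neurog2 and Hes5 were at most at 0.186 in the 4 cultures. The fibroblast list summed to 4.60 and 17.8 in CH+LIF and 2.52 and 3.44 in LIF+PD, with Dcn, Col3a1 and Lum listed at 0. Most of the 17.8 was Postn, at 14.1 in CH+LIF replicate 2 and listed at 0 in replicate 1. Of the 10 genes 2 were tested, and Thy1 was called higher in CH+LIF (0.85 ± 0.27, adjusted p = 0.0463 by limma). That was 50% called, against 31.7% of all tested genes, and the call did not hold without 1 of the 4 cultures. The 10 genes of the 2-cell-like state with values summed to at most 1.20. The part of other cell types in the differences above was not tested.

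**Figure D5:**
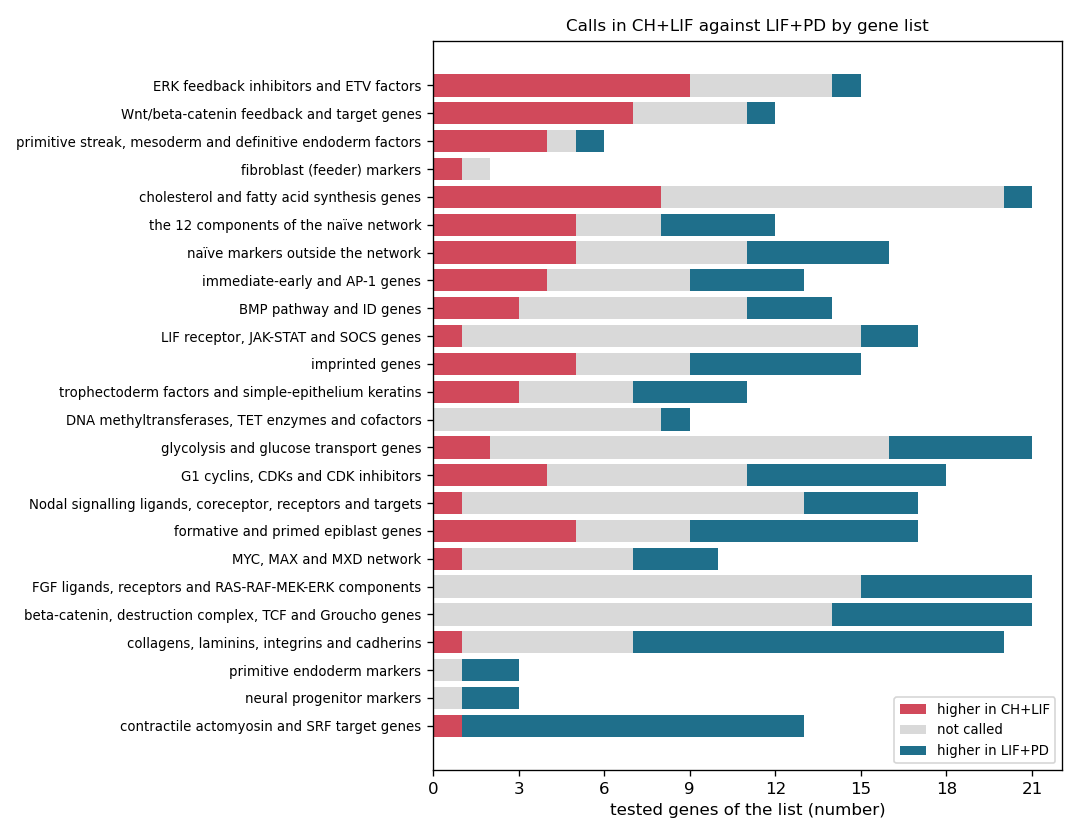
Number of tested genes called higher in CH+LIF, not called, and called higher in LIF+PD (horizontal axis, genes) for the 24 gene lists with at least 1 tested member, ordered by the share called higher in CH+LIF minus the share called higher in LIF+PD. ERK feedback, Wnt target, mesendoderm and fibroblast genes stand at the end towards CH+LIF. Contractile actomyosin, neural, primitive endoderm and matrix genes stand at the end towards LIF+PD. The fibroblast list had 2 tested genes, and the neural and primitive endoderm lists had 3 each. Of all tested genes 31.7% were called.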

How the data were processed

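RNA was sequenced from 8 cultures, 2 each in CH+LIF, LIF+PD, 2i+LIF and 2i, and grouped by the sample labels. The study's methods describe rRNA depletion and the sample records describe polyA selection, and which applies was not settled. According to the methods, single-end reads were aligned with TopHat2 to mm10 with the Ensembl annotation. The authors deposited FPKM values per gene with lower and upper bounds, and the submitters' processing notes name TopHat2, Cufflinks and Cuffdiff without versions. Strand use is not given in the sources used here. The bounds were not used, since 777 to 1412 entries per file have an FPKM outside them. The methods also describe a count-based test, and read counts were not analysed here.

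From these files, 22 repeated gene identifiers were summed, leaving 38991 genes. Genes shorter than 300 bases were left out, as were those that did not reach an FPKM of 1 in 2 or more cultures, and log2(FPKM + 1) of all 8 cultures was fitted by group in limma 3.58.1 (R 4.3.3) with a mean-variance trend and 4 residual degrees of freedom. Tests were two-sided, with Benjamini-Hochberg adjustment over 12777 genes at 0.05. Simulated data held 200 changed genes in each of 3 runs over 12777 genes, with the change placed in CH+LIF. There, 24% of changes of 0.5, 69.3% of 1, 94% of 2 and 99.3% of 4 (log2) were recovered, and 6.11% of calls were unchanged genes. The changed genes all had a mean log2(FPKM + 1) above 2 and were far fewer than the 4050 genes called in the data. These rates therefore describe the simulation and cannot be carried over to this contrast.

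The genes named are Axin2, Dusp6 and Tcf7l1; the 12 network components and Zfp42; all members of the Wnt target, ERK feedback and LIF lists; up to 4 called members of each other list with the largest difference in each direction; and the 10 largest called differences in each direction among genes with a mean FPKM of at least 5 in 1 group and no overlap between the 4 cultures. The comparison, lists and rule were chosen with earlier results of these data known, so no list counts as independent support. Lists are described by their calls and medians, without a set test. The list symbols Acta1, Mvd, Mycl1, Kcnq1ot1, Tubb3 and Zscan4a had no values and were not analysed here, and a few genes that the rule would name are not reported here. Alternatives covered the pseudocount, filters, scaling, the trend, a replicate block, the 4 cultures alone and the omission of each culture. Promoter sequence came from RefSeq, GRCm38.p6.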

Additional observations from a re-analysis of the deposited data

How the results depend on the processing

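The number of called genes stayed within 1.5 times the 4050 reported under every change of pseudocount, filter, scaling, trend or fit. Leaving out each of the 8 cultures in turn gave 2407 to 4170 called genes, 892 to 1737 of them higher in CH+LIF and 1515 to 2433 higher in LIF+PD. The total fell by more than 1.5 times without CH+LIF replicate 1 (2407), without LIF+PD replicate 1 (2520) and without LIF+PD replicate 2 (2614), when the lone culture of a group is assumed to vary like the other groups. Scaling changed the split more than the total: the share of calls higher in CH+LIF was 41.3% as reported, 50.2% with equal FPKM sums (TPM) and 51.1% with quantile normalization. The largest shift of the median of all genes by a scaling was 0.0652 on the log2 scale. In this section the 171 called named genes are all called list members and the 10 largest called differences in each direction. This set is wider than the rule for named genes, and some of it, such as Lamb1 and Nid1, is not named above. No difference of these genes changed sign under any alternative.

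Across all alternatives the difference ranged from 3.31 to 4.89 for Axin2 (largest adjusted p = 0.000203 by limma), from 1.72 to 2.57 for Dusp6 (0.0072) and from -2.23 to -1.94 for Tcf7l1 (0.00067). Of the 171 called named genes, 113 stayed called whichever of the 4 cultures was left out (40 higher in CH+LIF, 73 in LIF+PD), and 125 to 131 stayed called in each of these fits. Under the other changes 146 (no filter on low values) to 170 of them stayed called. The medians of 5 lists changed sign under at least 1 alternative: LIF and JAK-STAT genes, naïve markers, BMP and Id genes, imprinted genes and trophectoderm genes.

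The replicate numbers pair the samples by number only, as there are 2 pairs and the labels name no shared origin, and the deviations of same-numbered cultures correlated at 0.115 for these groups. With a replicate block, 4266 genes were called, 1799 higher in CH+LIF and 2467 in LIF+PD, and 166 of the same 171 genes stayed called (Pim3, Grb2, Egr1, Lss and Gata4 did not). FPKM carry no read numbers, so counting error could not be given, and 2 cultures per group limit what small differences can pass.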

Other observations

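Lefty1 and Lefty2, secreted inhibitors of Nodal, differed widely between the LIF+PD replicates and were chosen after their values had been seen. Lefty1 was at 2.98 and 2.96 in CH+LIF, 66.4 and 3.08 in LIF+PD, 22.3 and 9.69 in 2i+LIF and 109 and 49.2 in 2i. Lefty2 was at 15.3 and 7.21, 108 and 6.002, 76.5 and 39.6 and 207 and 61.5 in the same order, and replicate 1 was the higher culture in every condition for both genes. Neither was called between CH+LIF and LIF+PD (adjusted p = 0.196 and 0.446 by limma).

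The glycolytic enzymes Ldha, Tpi1 and Pgk1 were also higher in replicate 1 of every condition. Ldha, a lactate dehydrogenase subunit, was at 644 and 459 in CH+LIF, 468 and 293 in LIF+PD, 856 and 534 in 2i+LIF and 667 and 425 in 2i, and was not called (adjusted p = 0.237). Tpi1, triosephosphate isomerase, was at 315 and 219, 256 and 193, 480.2 and 327 and 462 and 304, and Pgk1, phosphoglycerate kinase, at 183 and 139, 174 and 121, 297 and 185 and 307 and 188. These enzymes were also picked after their values had been seen. Postn, a matrix gene of fibroblasts, was at 14.1 in CH+LIF replicate 2 and at most at 0.0338 in the other 3 of these cultures.

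Dppa3 and Dnmt3a had levels in 2i+LIF or 2i outside the range of CH+LIF and LIF+PD. Dppa3 was at 66.05 and 47.9 in 2i+LIF and 24.1 and 15.3 in 2i, and was lower in CH+LIF than in 2i+LIF (difference -4.10 ± 0.22, adjusted p = 0.000107) and lower in LIF+PD than in 2i+LIF (difference -0.997 ± 0.22, adjusted p = 0.0144). Dnmt3a was at 63.5 and 51.2 in 2i, above CH+LIF, LIF+PD and 2i+LIF. Pdk1 was higher in CH+LIF than in 2i+LIF (difference 2.71 ± 0.26, adjusted p = 0.000604), while LIF+PD minus 2i+LIF was -0.81 ± 0.26 (adjusted p = 0.0533).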
